A study of Arabidopsis thaliana with 6 samples.

Results

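Cysteine-rich receptor-like kinases (CRKs) are transmembrane proteins of plants that carry cysteine-rich DUF26 domains outside the cell and a protein kinase domain inside it. The family is known for roles in immunity, cell death, abscisic acid responses and signalling by reactive oxygen species, and many of its genes are induced by pathogens, salicylate or ozone. The genes described here are the 39, of 22446 genes in the table of the first high light pair, whose description names a cysteine-rich receptor-like protein kinase or cysteine-rich RLK. They were followed through all 3 deposited tables. The known family genes CRK45 (ARCK1, AT4G11890) and CRK9 (EP1, AT4G23170) have other descriptions and are not among them.

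The study sequenced rosette leaf RNA of Arabidopsis thaliana, ecotype Columbia, in 6 libraries, from wild type (WT) and from the ibm1-3 mutant. IBM1 is a histone demethylase that removes methylation of histone H3 lysine 9 from gene bodies. Low light was sampled at 40 days of age with 1 library per genotype, and high light at 30 days of age after 48 hours of treatment with 2 libraries per genotype, all from plants in a long-day greenhouse. Light, age and deposited table therefore cannot be told apart, whereas the genotypes were compared within a table. The labels do not say whether the libraries of a genotype came from separate plants or cultures, so p-values cover these libraries only. In the main tests they measure how far the 2 high light pairs differed in their ratio of ibm1-3 to WT, with variances moderated over all genes. They do not measure the spread between libraries of 1 genotype. The nature of the ibm1-3 lesion is not given in the sources used here. In bulk leaf RNA, fewer cells of a type and less RNA per cell cannot be told apart.

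The first high light pair held 12121246 (WT) and 12502408 (ibm1-3) estimated fragments, and the steps of the values in the second pair implied about 22300000 and 22200000. The low light libraries held 15425082 (WT) and 13099267 (ibm1-3) reads. The top 10 genes by level held 9.48% and 9.92% of the summed FPKM in the WT high light libraries and 4.56% and 4.35% in those of ibm1-3. Leaf mesophyll markers fell in high light in 5 of 5 genes tested, and their summed level was 19188 and 31375 FPKM in WT against 3225 and 6100.5 in ibm1-3. In low light the same sum was 8585 RPKM (reads scaled to gene length and library total) in WT and 5595 in ibm1-3. There 4 of the 5 mesophyll markers were at least 2-fold lower, with a median log2 ratio of -1.67. The exception, RCA, stood at 3568 RPKM in WT and 3669 in ibm1-3 and made up a large part of the sum. Of 4 markers in each list, 3 of root rose and none fell, 3 of vascular tissue rose and none fell, 3 of epidermis rose and 1 fell, and 2 of guard cells rose and 2 fell. These counts stand against 49.2% of all genes tested that rose and 26% that fell. The summed root markers were at 7.43 and 8.94 FPKM in WT and 34.8 and 48 in ibm1-3, and the epidermis sum was at 53.7 and 61.4 FPKM in WT and 85.8 and 103 in ibm1-3. The vascular sum was at 60.6 and 105 FPKM in WT and 86.4 and 161 in ibm1-3, and that of guard cells lay between 39.1 and 43.8 FPKM in all 4. In low light the epidermis sum was 125 RPKM in WT and 74.5 in ibm1-3, with 2 of 4 markers at least 2-fold lower, against 9.86% of all genes. The difference between lights was called higher for 3 of 4 epidermis markers and lower for 1. Higher and lower calls numbered 2 and 0 of 3 for vascular tissue and 1 and 0 of 2 for root. They numbered 0 and 1 of 4 for guard cells and 1 and 4 of 5 for mesophyll. Of all genes 30% were called higher and 31.1% lower, and most CRK genes were called higher. The low light root sum was 4.17 RPKM in WT and 10.5 in ibm1-3, the vascular sum 197 and 194, and the guard cell sum 34.1 and 42.4. Flower markers, none of which passed the filter, summed to at most 2.1 FPKM in high light and to 0 (WT) and 6 (ibm1-3) RPKM in low light. The morning clock genes CCA1 and LHY fell by 4.71 and 4.12 on the log2 scale in ibm1-3 in high light, while their low light log2 ratios were -0.03 and 0.03. The evening clock gene TOC1 rose by 1.71 in high light and had a low light log2 ratio of -1.38 (95% counting interval -1.6 to -1.17). The part of these shifts in the values below was not tested.

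IBM1 itself stood at 13.81 and 8.34 FPKM in the WT high light libraries and at 17.6 and 7.46 in those of ibm1-3. The groups overlapped, and the log2 fold change was 0.09 ± 0.13 (SE, n = 2 per genotype, limma adjusted p = 0.526). The low light reads of IBM1 numbered 643 for WT and 399 for ibm1-3, with a log2 ratio of -0.71 (95% counting interval -0.9 to -0.53). Its transcript level in high light is therefore no check of the labels, and genotypes are named below as the labels give them.

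In high light most CRK transcripts were more abundant in ibm1-3. The summed level of the family was 895 and 1099 FPKM (fragments scaled to gene length and library total) in WT and 1576 and 2087 FPKM in ibm1-3. In low light the order was the other way, with 2191 RPKM in WT and 1127 in ibm1-3. The median member stood at 7.23 and 9.89 FPKM in WT against 15.8 and 19.5 FPKM in ibm1-3 in high light. In low light the medians were 20 RPKM in WT and 17.9 in ibm1-3.

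Of 38 members in both high light tables, 34 passed the filter of at least 1 FPKM in 2 libraries. By limma on log2(FPKM + 1), adjusted over all 17399 genes tested at a threshold of 0.05, 27 of the 34 rose in ibm1-3, 4 fell and 3 (CRK34, CRK18 and CRK24) did not pass. Of all genes tested, 49.2% rose and 26% fell. At least 2-fold changes came to 15 members higher and 3 lower, where 19% and 9.48% of all genes did so. The median log2 fold change was 0.81 for the members tested and 0.25 for all genes. With median-ratio size factors, which put the all-gene median at -0.01 and the shares of all genes at 36.2% higher and 37.4% lower, the member median was 0.55, and 25 members rose and 6 fell. Both ibm1-3 values lay above both WT values in 29 of the 38 members, against 43.2% of genes tested, and below both in 4, against 22%, while 5 overlapped. Unlike the genes tested, the 38 include members that did not pass the filter. CRK30, CRK32 and CRK33 are among the 29 and CRK26 among the 4, while CRK13, which fell by limma, is among the 5. CRK20 passed the filter only through ibm1-3 and CRK27 only through WT.

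On the log2(FPKM + 1) scale the pairs were close to each other. The log2 ratio of ibm1-3 to WT on this scale differed by under 0.5 between the pairs in all 38 members, at most by 0.38. The scale shrinks the ratios of weakly expressed members such as CRK27, and with them the differences between the pairs. The count of 27 rests on the block for the table. Without the block 15 members passed as higher, where 18.2% of all genes did, and 3 as lower, where 8.4% did. With 3 libraries and no block, 3 passed without WT 1, 5 without WT 2, 12 without ibm1-3 1 and 10 without ibm1-3 2. CRK39 and CRK29 passed in all 4 of these fits, as did CRK20, which had entered the test only through its ibm1-3 values, and 17 of the 31 called members passed in none, CRK6, CRK10, CRK5 and CRK3 among them.

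**Figure D1:**
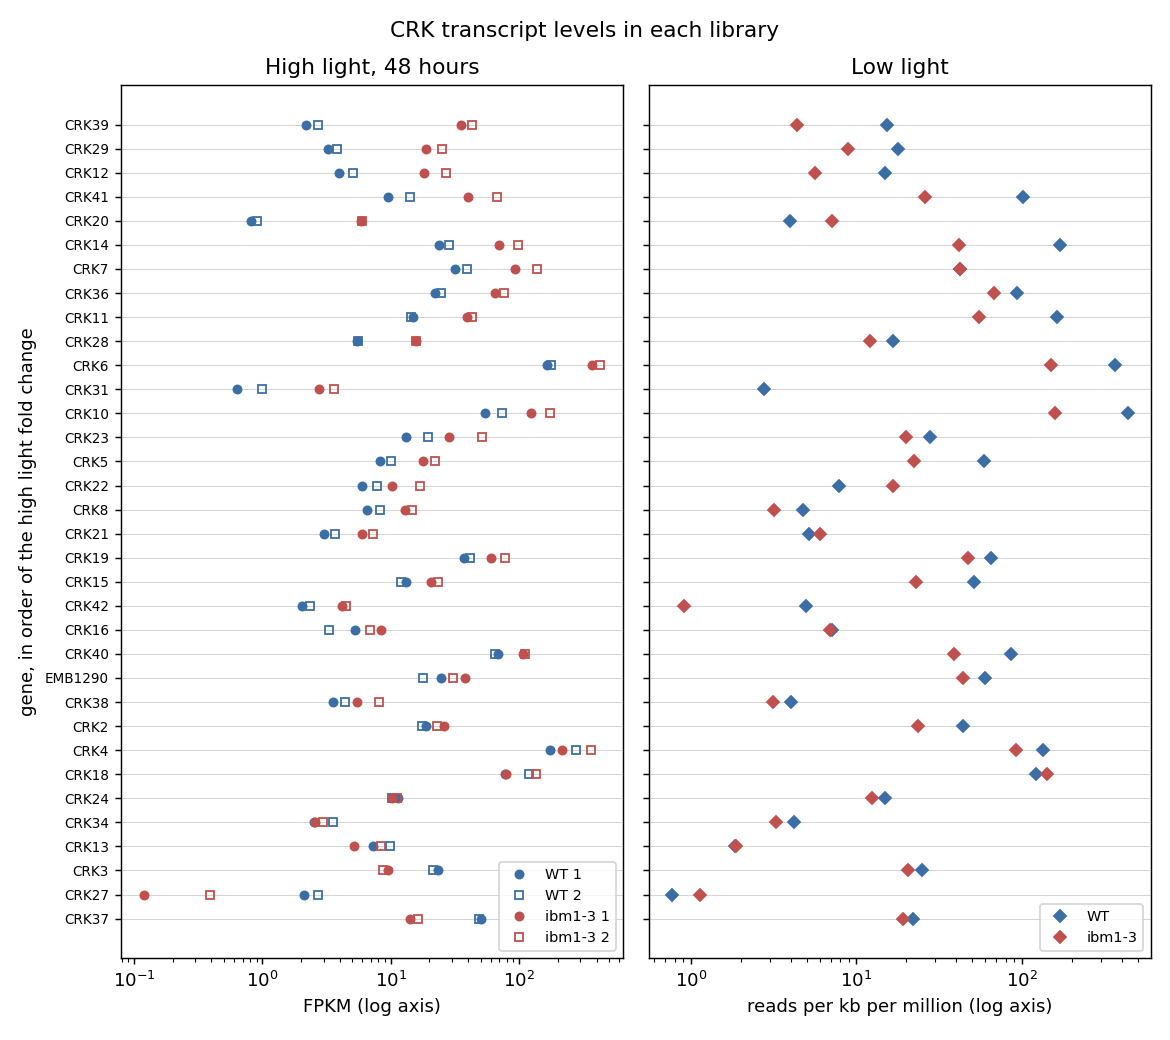
Levels of the 34 CRK genes that passed the filter, in FPKM for the 4 high light libraries (left) and in RPKM for the 2 low light libraries (right), both on log axes. The ibm1-3 points lie to the right of WT for most genes in high light, and to the left for most in low light. CRK31 is listed at 0 in low light ibm1-3 and has no point there.

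Many CRK promoters hold W-boxes, the TTGAC core motif bound by WRKY transcription factors, which act downstream of pathogen perception. The letters TTGACC and TTGACT were searched on both strands, overlapping matches included, in the 250 bases before the gene start that RefSeq annotates on TAIR10.1. At least 1 match was present in 25 of the 39 members (64.1%) and in 28.4% of 27443 protein-coding promoters. At least 2 were present in 11 members (28.2%) against 6.18% of promoters, and at least 3 in 3 members (7.69%) against 1.06%. The 6 windows below were chosen by hand after their values were seen, as examples with 1 to 4 matches among members that rose at least 2-fold and among those that fell (CRK37). EMB1290, with 3 matches, and CRK29, with 1, are not shown. They are written 5′ to 3′ on the strand of the gene, with W-boxes (or their reverse complement AGTCAA) in capitals. The windows lie at chr4:12143859-12144108 (minus strand) for CRK11, chr4:12120221-12120470 (minus) for CRK5, chr4:12121119-12121368 (plus) for CRK6, chr4:2259248-2259497 (plus) for CRK39, chr4:418077-418326 (plus) for CRK41 and chr4:2238120-2238369 (plus) for CRK37.
CRK11: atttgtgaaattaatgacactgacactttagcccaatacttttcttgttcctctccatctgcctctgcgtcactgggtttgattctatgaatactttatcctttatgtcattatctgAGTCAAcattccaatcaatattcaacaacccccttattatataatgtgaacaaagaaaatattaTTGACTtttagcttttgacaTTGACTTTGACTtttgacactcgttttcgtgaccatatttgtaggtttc
CRK5: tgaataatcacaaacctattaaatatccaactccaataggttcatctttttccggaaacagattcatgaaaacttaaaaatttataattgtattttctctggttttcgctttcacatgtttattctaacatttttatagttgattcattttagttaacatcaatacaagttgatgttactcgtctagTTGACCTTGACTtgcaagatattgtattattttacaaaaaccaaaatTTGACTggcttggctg
CRK6: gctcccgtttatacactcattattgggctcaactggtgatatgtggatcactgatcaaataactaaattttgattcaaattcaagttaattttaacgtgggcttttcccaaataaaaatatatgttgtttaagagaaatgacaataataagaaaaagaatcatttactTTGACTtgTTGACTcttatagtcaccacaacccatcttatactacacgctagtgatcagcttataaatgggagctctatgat
CRK39: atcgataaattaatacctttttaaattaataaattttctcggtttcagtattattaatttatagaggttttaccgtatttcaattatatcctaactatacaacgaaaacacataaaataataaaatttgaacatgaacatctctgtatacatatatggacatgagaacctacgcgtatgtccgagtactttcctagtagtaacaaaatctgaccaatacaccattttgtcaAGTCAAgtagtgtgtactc
CRK41: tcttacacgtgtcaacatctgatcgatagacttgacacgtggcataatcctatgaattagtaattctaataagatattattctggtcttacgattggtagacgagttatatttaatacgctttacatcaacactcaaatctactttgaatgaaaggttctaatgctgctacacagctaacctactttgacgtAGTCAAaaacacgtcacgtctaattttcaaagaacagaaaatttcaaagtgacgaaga
CRK37: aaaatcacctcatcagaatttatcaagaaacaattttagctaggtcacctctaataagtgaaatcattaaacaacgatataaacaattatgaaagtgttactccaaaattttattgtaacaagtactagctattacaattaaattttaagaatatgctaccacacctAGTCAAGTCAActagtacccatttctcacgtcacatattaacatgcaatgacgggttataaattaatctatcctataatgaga
CRK11 holds 4 matches and CRK5 holds 3, while CRK37, which fell in high light, holds 2 that share a base. The matches did not separate the directions: 18 of the 27 members that rose, 2 of the 4 that fell and 3 of the 3 that did not pass held at least 1. CRK10, CRK7 and CRK12, 3 of the members that rose at least 2-fold, held none in this window. Of the 39 windows, 8 overlap another annotated gene. For some members the RefSeq start lies well upstream of the start in the coordinates deposited with the values. The window of CRK40 ends at 2288615 and the deposited start is 2289902, and for CRK8 these are 12129484 and 12131325. Such windows do not describe the bases just before the deposited start.

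**Figure D2:**
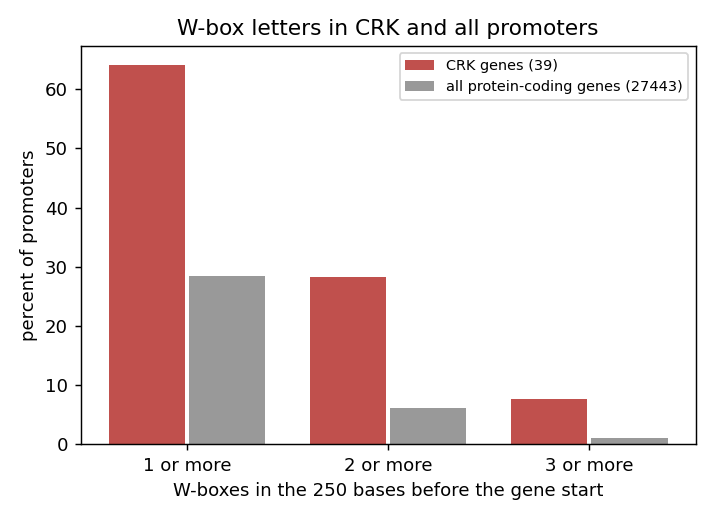
Percent of promoters with at least 1, 2 or 3 W-boxes in the 250 bases before the gene start, for the 39 CRK genes and for 27443 protein-coding genes. The CRK bars stand at 64.1%, 28.2% and 7.69%, and those of all genes at 28.4%, 6.18% and 1.06%.

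CRK39 (AT4G04540, chromosome 4, 2259557 to 2262315, plus strand, TAIR10) had the highest fold change of the members tested. It had 2.2 and 2.73 FPKM in WT against 35.22 and 43.03 FPKM in ibm1-3 in high light. The genotypes lay far apart, and the log2 fold change was 3.53 ± 0.09 (SE, n = 2 per genotype, limma adjusted p = 9.2e-08). Its closest relative in coding sequence is CRK40 (AT4G04570, chromosome 4, 2289902 to 2292950), with 86.6% identity. CRK40 had 68.24 and 65.29 FPKM in WT against 107.19 and 111.39 FPKM in ibm1-3, and it rose by 0.7 on the log2 scale. The pair thus shares sequence but differs in level in WT and in the size of its rise.

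CRK28 (AT4G21400) and CRK29 (AT4G21410, chromosome 4, 11402314 to 11404650, minus strand) are neighbours with 85.8% coding identity. CRK28 is known to associate with the co-receptor BAK1, and its overexpression raises pathogen resistance and causes cell death. CRK29 had 3.25 and 3.81 FPKM in WT against 18.67 and 24.81 FPKM in ibm1-3, without overlap. Its log2 fold change was 2.32 ± 0.11 (limma adjusted p = 9.51e-07). CRK28 had 5.45 and 5.53 FPKM in WT against 15.81 and 15.69 FPKM in ibm1-3, a rise of 1.37 ± 0.1. The RefSeq annotations of the genes overlap by 470 bases on the same strand. In the TAIR10 coordinates deposited with the values they do not, as CRK28 ends at 11401709. Whether fragments were shared between them was not tested.

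CRK41 (AT4G00970, chromosome 4, 418391 to 421739, plus strand) had 9.42 and 14.17 FPKM in WT against 39.93 and 66.68 FPKM in ibm1-3. Its log2 fold change was 2.07 ± 0.08 (limma adjusted p = 4.4e-07). CRK12 (AT4G23200, chromosome 4, 12145173 to 12147993, minus strand) rose by the same amount from a lower level, 3.94 and 5.08 FPKM in WT against 18.22 and 26.71 FPKM in ibm1-3. CRK14 (AT4G23220) had 23.74 and 28.27 FPKM in WT against 69.61 and 98.15 FPKM in ibm1-3, which gave a log2 fold change of 1.64 ± 0.08. In all 3 genes the lower ibm1-3 value was above the higher WT value.

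CRK6 (AT4G23140) and CRK7 (AT4G23150) are known for protecting leaves against reactive oxygen species in the apoplast. CRK6 was among the most abundant members, with 163.54 and 177.71 FPKM in WT and 368.83 and 427.59 FPKM in ibm1-3. It rose by 1.22 ± 0.06 on the log2 scale (limma adjusted p = 1.35e-06). CRK7 had 31.62 and 39.5 FPKM in WT against 92.18 and 136.46 FPKM in ibm1-3, a rise of 1.64 ± 0.08. CRK2 (AT1G70520), which phosphorylates the NADPH oxidase RBOHD, had 18.85 and 17.4 FPKM in WT against 25.74 and 22.74 FPKM in ibm1-3. Its log2 fold change was 0.4 ± 0.08 (limma adjusted p = 0.00203), and 0.11 with size factors, where it no longer passed (adjusted p = 0.213).

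CRK4, CRK5, CRK19 and CRK20 are also members whose overexpression is known to trigger cell death like that of the hypersensitive response. CRK20 (AT4G23280) had 0.82 and 0.91 FPKM in WT against 5.84 and 5.91 FPKM in ibm1-3, which gave a log2 fold change of 1.88 ± 0.13 (limma adjusted p = 1.02e-05). As given above, CRK20 entered this test only through its ibm1-3 values, which limits what the p-value can show. CRK5 (AT4G23130), which is also known from abscisic acid signalling and leaf senescence, had 8.18 and 10.01 FPKM in WT against 17.67 and 22.19 FPKM in ibm1-3. It rose by 1.05 ± 0.09. CRK19 (AT4G23270) is 89.8% identical to CRK20 in coding sequence, the closest pair of the 741 compared. It had 36.87 and 41.06 FPKM in WT against 60.59 and 76.87 FPKM in ibm1-3, a rise of 0.8 ± 0.07. CRK4 (AT3G45860) was high in every library, with 174.4 and 278.99 FPKM in WT and 214.06 and 364.29 FPKM in ibm1-3. The WT value of the second pair exceeded the ibm1-3 value of the first, so the genotypes overlapped across tables. Its rise of 0.34 ± 0.06 was lost with size factors (0.04, limma adjusted p = 0.489), and its direction turned without ibm1-3 2 (-0.04).

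CRK36 (AT4G04490) is known to interact with the immune kinase BIK1 and, together with ARCK1, to restrain abscisic acid responses. CRK36 had 22.06 and 24.79 FPKM in WT against 65.23 and 76.31 FPKM in ibm1-3, which gave a log2 fold change of 1.55 ± 0.06 (limma adjusted p = 6.43e-07). Its partner ARCK1 moved the other way, from 188.77 and 168.47 FPKM in WT to 86.21 and 82.31 FPKM in ibm1-3, a fall with a log2 fold change of -1.07 ± 0.06. CRK10 (AT4G23180), a gain-of-function allele of which dwarfs the plant, had 53.94 and 73.29 FPKM in WT against 123.19 and 172.94 FPKM in ibm1-3. CRK11 (AT4G23190), a gene long known to respond to pathogens and salicylate, had 14.85 and 14.35 FPKM in WT against 39.08 and 42.91 FPKM in ibm1-3. Their log2 fold changes were 1.2 ± 0.06 and 1.43 ± 0.08, with no overlap of the genotypes in either gene. CRK10 and CRK11 lie on opposite strands, and their ends overlap by 32 bases in RefSeq. In the TAIR10 coordinates deposited with the values they do not overlap.

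The 4 members that fell were CRK37, CRK27, CRK3 and CRK13. CRK37 (AT4G04500, chromosome 4, 2238373 to 2240921, plus strand) lies between CRK36 and CRK38, both of which rose. It had 49.99 and 48.38 FPKM in WT against 14.04 and 16.3 FPKM in ibm1-3, which gave a log2 fold change of -1.64 ± 0.08 (limma adjusted p = 1.75e-06). CRK3 (AT1G70530, chromosome 1, 26588452 to 26591771, minus strand) had 23.18 and 21.44 FPKM in WT against 9.55 and 8.62 FPKM in ibm1-3, which gave a log2 fold change of -1.21 ± 0.08. Its neighbour CRK2 rose, as given above, so adjacent genes went in opposite directions at both places. CRK27 (AT4G21230, chromosome 4, 11319139 to 11321679, minus strand) had 2.1 and 2.7 FPKM in WT against 0.12 and 0.39 FPKM in ibm1-3. On the log2(FPKM + 1) scale its fold change was -1.44 ± 0.15, which understates the ratio at such levels. CRK13 (AT4G23210), whose overexpression raises salicylate and resistance to Pseudomonas, had 7.23 and 9.78 FPKM in WT against 5.19 and 8.32 FPKM in ibm1-3. Its ibm1-3 values overlapped WT across the tables, and its log2 fold change of -0.31 ± 0.11 lay near the threshold (limma adjusted p = 0.0348, and 0.0619 with no filter on low values).

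The other members that rose had log2 fold changes between 0.62 (CRK38) and 1.21 (CRK31). CRK31 (AT4G11470) had 0.63 and 1 FPKM in WT against 2.75 and 3.64 FPKM in ibm1-3. CRK21 had 3.03 and 3.65 FPKM in WT against 5.98 and 7.2 FPKM in ibm1-3. CRK23 rose by 1.2, CRK22 by 0.86, CRK8 and CRK21 by 0.81, CRK15 by 0.77, CRK42 by 0.74, CRK16 by 0.73 and EMB1290 (CRK17) by 0.68. Of the 3 that did not pass, CRK18 had 77.94 and 119.22 FPKM in WT against 78.89 and 136.22 FPKM in ibm1-3 and a log2 fold change of 0.1 ± 0.07 (limma adjusted p = 0.186), which turned to -0.19 with size factors and then passed (adjusted p = 0.0175). CRK34 had -0.09 ± 0.14 and CRK24 -0.01 ± 0.1, the latter -0.28 with size factors (limma adjusted p = 0.0329).

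The members outside the test were near the detection limit in leaves. CRK26 had 1.06 and 0.8 FPKM in WT against 0.55 and 0.76 FPKM in ibm1-3. CRK32 had 0.08 and 0.11 FPKM in WT against 0.52 and 0.75 FPKM in ibm1-3. CRK30 had 0.04 and 0.06 FPKM in WT against 0.28 and 0.46 FPKM in ibm1-3. These 3 differ in direction, with CRK32 and CRK30 higher in both ibm1-3 libraries. CRK33 was listed with no fragment in WT and stood at 0.13 and 0.09 FPKM in ibm1-3, and CRK25 stood at 0.04 FPKM in both libraries of the first pair and had no value in the second.

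In low light, with 1 library per genotype and no test, most members stood below WT in ibm1-3. Reads were scaled with TMM factors and members below 50 reads in the summed libraries were dropped, which left 34 of the 36 members with values. The log2 ratio of ibm1-3 to WT was under 0 in 31 of the 34, where 49% of 16509 genes were under 0. At least 2-fold lower were 14 members, against 9.86% of all genes, and no member was at least 2-fold higher, against 5.81%. The 95% counting interval, which covers counting error only, lay below 0 in 27 members, above 0 in 2 (CRK22 and CRK20) and held 0 in 5. The median was -0.74 for the members and 0.01 for all genes. Scaled by library totals alone, the medians were -0.48 and 0.27, 28 members were under 0, and CRK22 was at least 2-fold higher (1.09).

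The low light ratio varied among the abundant members. CRK10 had 435 RPKM in WT, the highest of the family there, and 158 in ibm1-3. Its 14741 and 4546 reads gave a log2 ratio of -1.72 (95% counting interval -1.77 to -1.67). CRK6 stood at 364 and 149.9 RPKM, with a log2 ratio of -1.54 (-1.59 to -1.49). These 2 members had the highest levels in low light WT, and both rose in high light. Some other abundant members had smaller gaps, with log2 ratios of -0.79 for CRK4 (133 and 91.9 RPKM), -0.73 for CRK36 (93.7 and 67.8 RPKM) and -0.04 for CRK18 (122 and 142 RPKM).

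The 5 lowest ratios among members with at least 100 reads were those of CRK42, CRK14, CRK41, CRK39 and CRK11. CRK42 (AT5G40380, chromosome 5, 16151772 to 16155215, plus strand) had 167 reads in WT and 26 in ibm1-3, which put its log2 ratio at -2.71 (95% counting interval -3.36 to -2.11). CRK14 had 5167 and 1083 reads, a log2 ratio of -2.28 (-2.37 to -2.18). CRK41 had 3511 and 762 reads, a log2 ratio of -2.23 (-2.34 to -2.12). All 3 of these genes had risen in high light, and so had the next. CRK39 had 536 reads in WT and 130 in ibm1-3, which put its log2 ratio at -2.07 (-2.36 to -1.79). CRK11 had 5210 and 1499 reads, a log2 ratio of -1.82 (-1.91 to -1.74). CRK31 had 95 reads in WT and was listed at 0 in ibm1-3, where a listed 0 stands for fewer than 15 reads. Set to 14 reads, it gives a log2 ratio of -2.79 or lower.

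The highest low light ratios were few and small. CRK22 (AT4G23300) had 316 reads in WT and 570 in ibm1-3, which put its log2 ratio at 0.83 (95% counting interval 0.63 to 1.03). CRK20 had 122 and 184 reads, a log2 ratio of 0.57 (0.23 to 0.91). Both also rose in high light, so they were higher in ibm1-3 in both lights. CRK27 had 24 and 30 reads, and its ratio of 0.3 had an interval (-0.53 to 1.13) that held 0. CRK18 had 3759 reads in WT and 3722 in ibm1-3, CRK21 had 190 and 186, and CRK13 had 71 and 61. Their log2 ratios of -0.04, -0.06 and -0.24 also had intervals that held 0, and scaled by library totals alone they were 0.22, 0.21 and 0.02. The interval of CRK16 (-0.3, from -0.67 to 0.07) held 0 as well. Members known for cell death or reactive oxygen species lay on both sides of the family median, with log2 ratios of -1.67 for CRK5, -1.16 for CRK2, -0.79 for CRK4, -0.72 for CRK19 and CRK28, and -0.26 for CRK7.

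Set against each other, the effects of genotype in low and high light had opposite signs in most members. Of the 34 members with both values, 25 rose in high light and had a low light ratio under 0, where 24.1% of 15851 genes did so. The scaling differed between the lights. High light values were FPKM as deposited, with an all-gene median of 0.25, and low light ratios were TMM-scaled, with an all-gene median of 0.01. The share of all genes carries the same scaling, and opposite signs were not counted with size factors in high light. At least 2-fold in both directions, and in both high light pairs, were 10 members: CRK5, CRK6, CRK10, CRK11, CRK12, CRK14, CRK29, CRK31, CRK39 and CRK41. Of all genes, 4.44% rose at least 2-fold in high light and were at least 2-fold lower in low light. No member did the reverse, which 0.625% of all genes did.

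**Figure D3:**
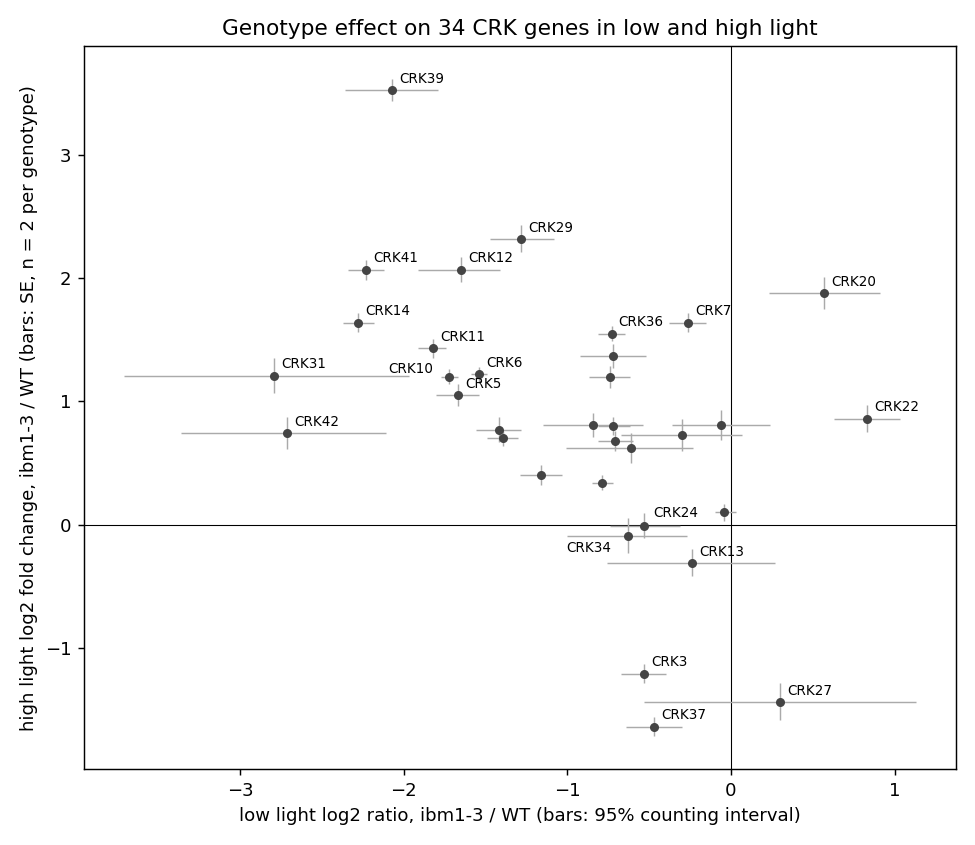
Log2 ratio of ibm1-3 to WT in low light (horizontal, bars are 95% counting intervals, 1 library per genotype) against the log2 fold change in high light (vertical, bars are SE, n = 2 per genotype) for 34 CRK genes. Most points lie in the upper left, with CRK39 at -2.07 and 3.53, and CRK37, CRK27 and CRK3 lie at the bottom. The point of CRK31 is an upper bound in low light.

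The difference of the 2 genotype effects was tested with limma over all 6 libraries, with the table as a block, for 33 members among 15991 genes. In this fit low light reads were scaled by library totals alone, without TMM factors, and 1 was added to each value before the log. The differences are therefore not exactly those of the 2 effects given above. The low light pair has no replicate and was assumed to vary like the high light pairs. The effect of ibm1-3 was higher in high light in 25 of the 33 members and lower in 3 (CRK3, CRK37 and CRK27), while 30% and 31.1% of all genes were called higher and lower. The median difference was 1.28 on the log2 scale for the members and -0.03 for all genes. CRK39 differed by 5.13 ± 0.17 (SE, limma adjusted p = 1.19e-07), CRK41 by 3.99 ± 0.13 and CRK14 by 3.63 ± 0.13. The 5 that did not pass were CRK34, CRK13, CRK18, CRK22 and CRK24, with differences from -0.32 to 0.24. CRK22 differed by -0.14 ± 0.19, while CRK20 was higher in ibm1-3 in both but more so in high light, by 1.19 ± 0.21. Without the block 9 members were called higher and none lower. With a high light library left out and no block, 6 were called higher without WT 1 or WT 2, 11 without ibm1-3 1 and 10 without ibm1-3 2.

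The members are clustered in the genome. Of the 39, 35 lie on chromosome 4, and 32 lie in 5 tandem arrays whose genes start within 20 kb of the next. The largest array holds 19 members from CRK5 to CRK24, at 12117524 to 12191704 on chromosome 4 (74.2 kb). In high light 16 of the 19 rose, CRK13 fell, and CRK18 and CRK24 did not pass, with log2 fold changes from -0.31 to 2.07. Of all genes tested, 49.2% rose and 26% fell. In low light 17 of the 19 stood below 0, 7 of them at least 2-fold, against 49% and 9.86% of all genes. The sizes varied between neighbours: CRK12 (2.07) and CRK14 (1.64) flank CRK13 (-0.31). The array of CRK36 to CRK39 spans 30.6 kb and had log2 fold changes from -1.64 to 3.53 in high light.

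Of the 5 other genes within 20 kb of the largest array, 2 lie inside it. In high light 4 were tested and 2 rose, near the 49.2% of all genes that did. GSH1, the glutamate-cysteine ligase of glutathione synthesis, rose by 0.8 and EP1 (CRK9) by 0.73. EP1 lies inside the array and bears a CRK name itself, so it is not an unrelated neighbour. In low light 3 were kept and none was at least 2-fold apart, with log2 ratios of 0.12 for GSH1 and -0.83 for EP1.

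**Figure D4:**
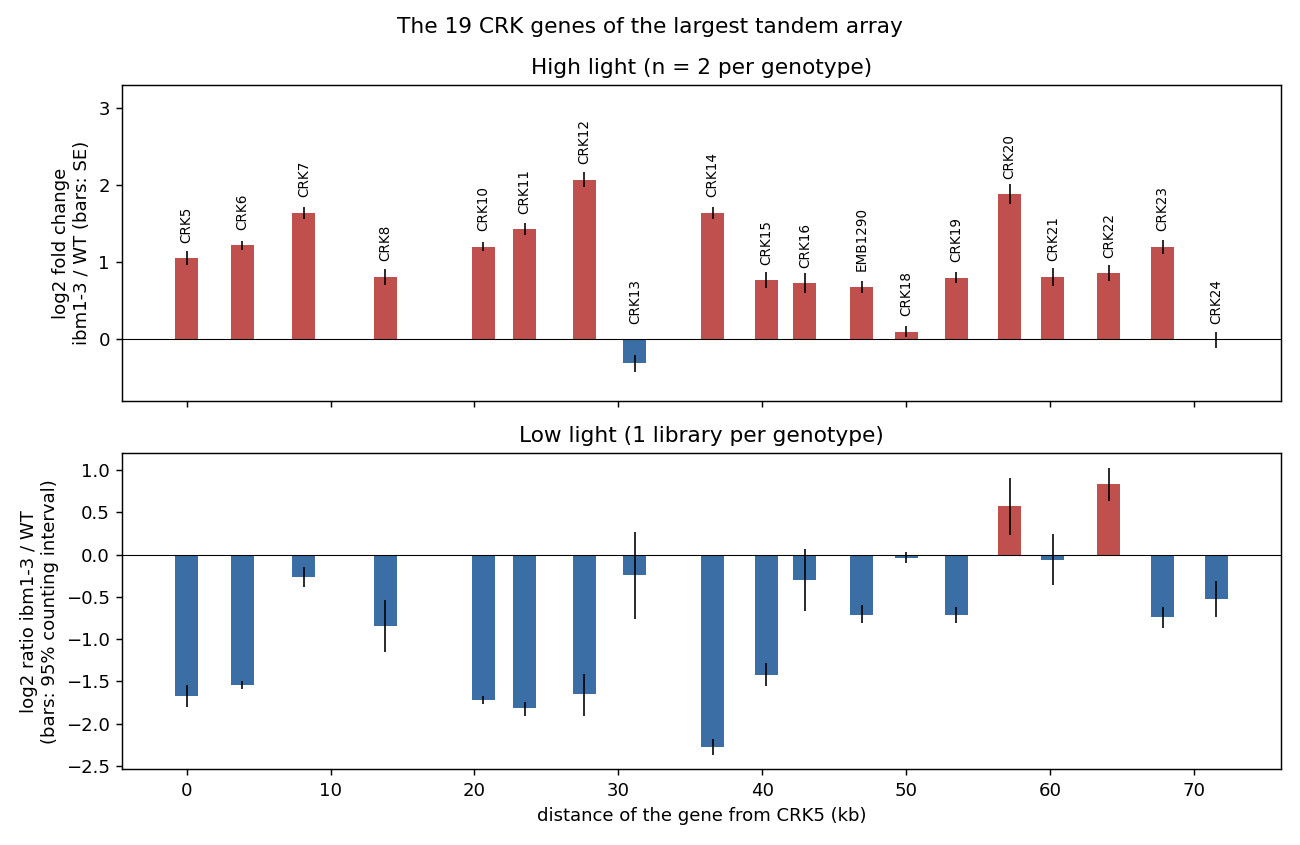
Log2 ratio of ibm1-3 to WT for the 19 CRK genes of the largest tandem array by distance from CRK5, in high light (top, bars are SE, n = 2 per genotype) and low light (bottom, bars are 95% counting intervals, 1 library per genotype). Red bars lie above 0 and blue bars below. In high light CRK13 and CRK24 lie below 0, and in low light CRK20 and CRK22 lie above it. The bar of CRK18 in high light turns below 0 with size factors.

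The members resemble each other moderately in sequence. The median identity over 741 pairs of coding sequences was 54.5%, and no pair reached 90%. The codon pattern of the C-X8-C-X2-C motif of the DUF26 domain occurred 2 times in 35 members, 1 time in CRK27 and CRK24, 3 times in CRK23 and 4 times in EMB1290. Among the 5 closest pairs, those with both genes tested rose together in high light by different amounts, as CRK39 and CRK40 did. In a less similar pair (84%), EMB1290 rose and CRK18 did not pass. CRK6 and CRK8 (86.4% identity) rose by 1.22 and 0.81, and CRK31 and CRK32 (87%) were both higher in the 2 ibm1-3 libraries. The RefSeq annotations of CRK16 and EMB1290 overlap by 1190 bases on the same strand. In the TAIR10 coordinates deposited with the values they do not, as CRK16 ends at 12163193 and EMB1290 starts at 12164451. Whether fragments were shared between them was not tested.

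Other genes of cell-surface and stress signalling were counted from lists, to be read against all genes, of which 49.2% rose and 26% fell in high light and 9.86% were at least 2-fold lower in low light. Of the receptor complexes at the cell surface, 7 of 8 rose in high light and 1 fell, and 3 of 8 were at least 2-fold lower in low light. The flagellin receptor FLS2 rose by 1.18 on the log2 scale and had a low light log2 ratio of -1.84. The BAK1 relative BKK1 rose by 0.83 and had a low light log2 ratio of -1.82. EFR and PBL1 rose by 1.73 and 1.05, with low light log2 ratios nearer 0, at -0.76 and -0.49. Of the genes for apoplastic reactive oxygen species, 3 of 4 tested rose and none fell. RBOHD had 48.6 and 59.01 FPKM in WT against 225.42 and 291.27 FPKM in ibm1-3, a rise of 2.24 ± 0.06 (limma adjusted p = 9.28e-08), with a low light log2 ratio of -1.37. Of the MAP and calcium kinases, 7 of 8 rose and 1 fell, with MPK11 at a log2 fold change of 2.76 in high light and a log2 ratio of -1.57 in low light.

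Of 10 WRKY factors, the family that binds W-boxes, 7 rose in high light and 2 fell. In low light 5 of the 9 kept were at least 2-fold lower and 2 at least 2-fold higher. WRKY40 had 29.37 and 26.16 FPKM in WT against 418.91 and 448.79 FPKM in ibm1-3, a rise of 3.92 ± 0.07 (limma adjusted p = 2.85e-08), with a low light log2 ratio of -2.51. WRKY70 had the opposite signs, a log2 fold change of -0.77 in high light and a log2 ratio of 1.27 in low light. Of 12 salicylate genes 7 rose and 3 fell in high light, and 4 were at least 2-fold lower in low light. PR1, a marker of salicylate responses, was higher in both lights, with a log2 fold change of 2.29 in high light and a log2 ratio of 2.39 in low light. The other 2 PR genes of the list were not. PR2 fell in high light (-0.41, limma adjusted p = 0.000897) and had a low light log2 ratio of -0.29. PR5 did not pass in high light (0.08, limma adjusted p = 0.238) and had a low light log2 ratio of -0.71. Of 7 abscisic acid genes 3 rose and 3 fell, and of 5 senescence genes 1 rose and 3 fell. The high light salicylate counts lie near the shares of all genes.

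Other families of receptor kinases, taken from the same description column, were counted for comparison with the 49.2% of all genes that rose and the 26% that fell. In high light 7 of 10 wall-associated kinases tested rose and 2 fell, as did 25 and 10 of 46 lectin receptor kinases and 75 and 13 of 109 leucine-rich repeat kinases. At least 2-fold lower in low light were 2 of 10, 12 of 52 and 26 of 107 of those kept. The opposite signs of the 2 lights, a rise in high light with a low light ratio under 0, were found in 7 of 10, 19 of 43 and 51 of 99, against 25 of 34 CRK genes and 24.1% of all genes. The lectin receptor kinases, of which 54.3% rose, lay near the share of all genes. Of the secreted DUF26 proteins, which lack the kinase domain, 3 of 4 tested rose, and none of the 3 kept in low light was at least 2-fold lower. No difference between the families was tested.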

How the data were processed

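Rosette leaf RNA was sequenced in 6 libraries, grouped by the sample titles and characteristics. Per the submitters' processing notes, the tool was Bowtie2 and the build TAIR10; the counting program and strand setting were not given in the sources used here. Per the labels' protocols, library preparation followed Illumina or BGI procedures, with no assignment to samples.

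The first high light table holds estimated counts and FPKM, per the file headers. The second holds a deposited expression column without counts whose steps are those of FPKM. Values of 0.01 were set to 0 in both. In the first table they stand where no fragment was counted, except 4 values in WT and 3 in ibm1-3; the second has no counts to show it. The authors deposited low light as a normalized signal, read counts times 1 factor per library: all values above 0 (100%) were a whole number of steps within 0.01 steps, from 15 upward, so a listed 0 (5419 genes for WT, 5497 for ibm1-3) means fewer than 15 reads. Because only the first table has counts, no count test was run in high light. The second table has 1003 identifiers with a transcript suffix, left out. Columns of the first pair are unnumbered; the title of their table, in the labels, made them replicate 1. For 2 high light samples the description and the title give different numbers.

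High light was fitted with limma 3.58.1 (trend, R 4.3.3) on log2(FPKM + 1), with the table, which is also the replicate number, as a block, for genes with at least 1 FPKM in 2 libraries. This scale shrinks the fold changes of weakly expressed genes. The 21437 genes in both tables gave 17399 tested, with 1 residual and 6.17 prior degrees of freedom, and Benjamini-Hochberg adjustment ran over all of them at 0.05. In low light, TMM factors (0.914 for WT and 1.09 for ibm1-3, edgeR 4.0.16) scaled the reads, genes with at least 50 reads were kept, a listed 0 was set to 14 reads, and exact Clopper-Pearson 95% intervals cover counting error only. The difference between lights was fitted with limma on log2(FPKM or RPKM + 1), with no TMM factors in the RPKM. Code was tested on simulated data. Coding sequences were aligned with MAFFT 7.526, and annotation and sequence came from RefSeq on TAIR10.1, where the gene coordinates of 22258 of 22258 shared genes overlapped those of the tables. Promoters were read from the genome.

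The members and the gene lists were chosen with earlier results of these data known. Values per library are given for up to 8 highest and 8 lowest high light fold changes of at least 2-fold (3 members fell that far), the 5 highest and 5 lowest low light ratios with at least 100 reads, the members opposite by at least 2-fold, and members with known roles. Alternatives were the pseudocount (0.1), the filters, the scaling, the block and leaving out each high light library.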

Additional observations from a re-analysis of the deposited data

Results flagged for a closer look

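In 25 members the genotype effect in low and high light had opposite signs and differed by the limma test of the difference itself (high light minus low light, log2 scale, 1 low light library per genotype). The 10 largest were those of CRK39 (5.13), CRK41 (3.99), CRK14 (3.63), CRK12 (3.32), CRK29 (3.26), CRK11 (2.97), CRK10 (2.66), CRK6 (2.49), CRK5 (2.42) and CRK42 (2.38). They were followed by CRK36 (2.02), CRK15 (1.89), CRK40 (1.81), CRK28 (1.8), CRK23 (1.67), CRK7 (1.64), CRK8 (1.28), CRK2 (1.27), CRK19 (1.25) and EMB1290 (1.11). The smallest were CRK38 (0.9), CRK4 (0.86), CRK16 (0.76) and CRK21 (0.63). CRK27 had the reverse signs, lower in high light and higher in low light, with a difference of -1.71, and its low light interval held 0. The low light interval also held 0 for CRK21 (-0.06, from -0.36 to 0.24) and CRK16 (-0.3, from -0.67 to 0.07). The low light signs above are those of TMM-scaled ratios. Scaled by library totals alone, as in the test of the difference, the low light ratio was 0.21 for CRK21, -0.04 for CRK16 and 0 for CRK7. The opposite sign is therefore uncertain in these 4 (CRK27, CRK21, CRK16 and CRK7). In CRK4 and CRK2 it is uncertain on the high light side. With size factors their high light values were 0.04 (limma adjusted p = 0.489) and 0.11 (limma adjusted p = 0.213). Without ibm1-3 2 the value of CRK4 was -0.04. Low and high light also differ in age and table, which cannot be told apart from light.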

How the results depend on the processing

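With no replicate block, 15 members rose in high light instead of 27 and 3 fell instead of 4, and the difference between lights was called higher in 9 members instead of 25 and lower in 0 instead of 3. The deviations of same-numbered libraries from their group means correlated at 0.895 across genes, and the numbers coincide with the tables, which were normalized separately. Over the fits that leave out 1 high light library, 3 to 12 members rose and 0 to 2 fell, and the difference was called higher in 6 to 11 and lower in 0 to 1. These fits have 3 or 5 libraries and no block, and the lone library of a genotype was assumed to vary like the others. In them the high light value of CRK4 ranged from -0.04 (without ibm1-3 2) to 0.72, that of CRK34 from -0.28 to 0.1 (without WT 2), that of CRK18 from -0.29 (without ibm1-3 2; -0.2 without WT 1) to 0.49, and that of CRK24 from -0.08 to 0.06 (without WT 1; 0.05 without ibm1-3 1). The difference of CRK18 ranged from -0.51 to 0.27 (without ibm1-3 1; 0.19 without WT 2), and that of CRK22 from -0.47 to 0.19 (0.03 without WT 2). None of these values passed the threshold in its fit. With size factors CRK18 turned to -0.19 in high light (limma adjusted p = 0.0175), and CRK2 and CRK4 no longer passed. With library totals alone, 1 member (CRK22) was at least 2-fold higher in low light instead of 0. Under pseudocount 0.1 all 34 high light values and all 33 differences kept their direction and their side of the threshold, and without the low-value filter CRK13 no longer passed. Where a value changed, the cause was not tested beyond the fewer libraries of these fits. Low light genes under 15 reads cannot be compared.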
